A study of Mus musculus with 12 samples.

Results

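Protocadherins are the largest family within the cadherin superfamily of cell adhesion proteins, and the 69 protocadherin genes described here are every row of the deposited expression table whose symbol starts with *Pcdh*, of 18180 genes in all. They were followed across 4 populations of EGFR+ tumor cells sorted from mouse GBM (glioblastoma, the most aggressive glial brain tumor). Of the 69 genes, 57 belong to the 3 gene clusters (14 *Pcdha*, 21 *Pcdhb* and 22 *Pcdhg* genes, including the 5 C-type genes *Pcdhac1*, *Pcdhac2*, *Pcdhgc3*, *Pcdhgc4* and *Pcdhgc5*) and 12 are non-clustered. The tumors came from mice with a conditional human EGFR transgene, deletion of Cdkn2a and a conditional luciferase reporter, on a mixed background of C57Bl/6J, 129S4, FVBN/J and Balb/cJ per the labels, to which the methods add SJL, in which a Cre-encoding lentivirus injected into the brain starts the tumor. Per the study's methods, the mice were 12 to 16 weeks old, with as many males as females. The study's results describe the sorted tumors as end-stage. Cells of 3 tumors, named T3, T4 and T5, were stained for EGFR with either PDGFR or Galectin-1 and sorted as PDGFRA+, PDGFRA-, GAL1+ and GAL1- cells, which gives 12 libraries and 3 per population. Both pairs of gates come from separate stainings of the same tumor, so the PDGFRA and the GAL1 gates can overlap in the cells they hold. All 4 populations come from the same tumors, and so from the same inherited alleles, and were defined by the gate. Markers of other cell types also differed between them, as given below.

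Clustered protocadherins carry extracellular cadherin repeats and bind the same protein on a neighbouring cell. In the *Pcdha* and *Pcdhg* clusters each gene is a variable first exon with its own promoter, spliced to constant exons that all members of the cluster share, whereas *Pcdhb* genes are single exons. Single neurons choose a few of these promoters, in a process that depends on DNA methylation and on chromatin loops made by CTCF and cohesin, while the C-type genes are used more uniformly, and the combination gives neurons a surface identity used in self-avoidance. The non-clustered genes encode mainly δ-protocadherins, which guide axons and sort cells in the developing brain, and several of them recruit the WAVE actin-regulating complex.

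Recovered reads ran from 9851175 to 24117541 per library, with medians of 22742465 in GAL1-, 18520302 in PDGFRA+, 14741665 in GAL1+ and 12062615 in PDGFRA- cells. Values are log2 CPM (counts of a gene scaled to library size, in the usual CPM unit, on the log2 scale) unless stated otherwise, and sets of 3 values follow the order T3, T4, T5. The gate genes were checked first. *Pdgfra* lay between 9.95 and 10.81 in PDGFRA+ cells and between 7.36 and 10.11 in PDGFRA- cells, with overlap between tumors and a higher value in PDGFRA+ than in PDGFRA- cells within each tumor (10.81 and 10.11, 10.13 and 8.62, and 9.95 and 7.36), and it lay between 10.34 and 10.81 in GAL1- and between 6.74 and 8.95 in GAL1+ cells. *Lgals1*, the gene of Galectin-1, lay between 7.41 and 7.95 in GAL1+ and between 6.05 and 6.81 in GAL1- cells. Markers of other cell types moved with the same gates. The study describes the sorted cells as CD45-. *Ptprc*, the gene of CD45, lay between 3.7 and 5.18 in GAL1- cells and between 8.21 and 9.0 in GAL1+ cells. The summed CPM of 12 leukocyte genes that include *Ptprc* was 91.1 to 236 in GAL1-, 927 to 2081 in PDGFRA+, 870 to 4088 in PDGFRA- and 4242 to 5338 in GAL1+ cells. That of 8 oligodendrocyte precursor genes was 5000 to 6202, 3978 to 6031, 1156 to 4238 and 624 to 1868 in the same order. These 8 include *Olig2* and the gate gene *Pdgfra*, so their sum is not independent of the PDGFRA gate. None of these markers was at or under 3 reads in all 3 libraries of a population, and their part in the protocadherin results was not tested. In bulk samples, fewer cells of a type and less RNA per cell cannot be told apart. PDGFRA- cells of T5, with a leukocyte sum of 4088 against 1643 and 870 in PDGFRA- cells of T3 and T4, also had lower protocadherin levels than the other PDGFRA- libraries, and the order of the populations and the comparison of PDGFRA+ with PDGFRA- cells are given without it as well.

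Protocadherin RNA was lower in GAL1+ than in GAL1- cells in every one of the 3 clusters, and the order of the means was GAL1-, PDGFRA+, PDGFRA- and then GAL1+ for 63 of the 69 genes, against 26.2% of all 18180 genes. The exceptions to this order were *Pcdhb11* and the non-clustered *Pcdh8*, *Pcdh12*, *Pcdh18*, *Pcdh19* and *Pcdh20*. The place of PDGFRA- cells in this order rested in part on PDGFRA- cells of T5. Without that library the order was present in 48 of the 69 genes (17.8% of all genes), in all 14 *Pcdha*, 19 of 22 *Pcdhg*, 9 of 21 *Pcdhb* and 6 of 12 non-clustered genes, and PDGFRA+ was above PDGFRA- in 50. Without T3, T4 or T5 as a whole it was present in 60, 63 and 55 genes (22.9%, 27.5% and 18.6% of all genes). GAL1- was above GAL1+ in 66 to 68 of the 69 genes in these cases. Summed over the *Pcdha* cluster, CPM was 118, 90.9 and 119 in GAL1- cells, 96.2, 63.5 and 81.5 in PDGFRA+ cells, 66.4, 49.1 and 33.1 in PDGFRA- cells and 35.6, 7.26 and 13.6 in GAL1+ cells. Thus every GAL1+ library was below every PDGFRA+ and GAL1- library, while GAL1+ cells of T3 (35.6) were above PDGFRA- cells of T5 (33.1). The GAL1- sum was 3.31-, 12.5- and 8.75-fold that of GAL1+ cells within T3, T4 and T5. In GAL1+ cells of T4 the whole *Pcdha* cluster held 91 recovered reads. *Pcdhb* sums were 290, 355 and 294 in GAL1-, 261, 248 and 201 in PDGFRA+, 190, 295 and 103 in PDGFRA- and 103, 90.5 and 47.7 in GAL1+ cells, with GAL1- to GAL1+ ratios of 2.81, 3.92 and 6.16. *Pcdhg* sums were 1313, 1162 and 1272 in GAL1-, 1209, 933 and 912 in PDGFRA+, 958, 831 and 355 in PDGFRA- and 499, 276 and 219 in GAL1+ cells, with ratios of 2.63, 4.21 and 5.81. In T4 the *Pcdhb* sum was higher in PDGFRA- than in PDGFRA+ cells. For the 12 non-clustered genes the GAL1- sums were 2074, 2250 and 2200 and the GAL1+ sums 726, 358 and 306. T3 had the smallest GAL1- to GAL1+ ratio in each of these 4 groups of genes.

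**Figure D1:**
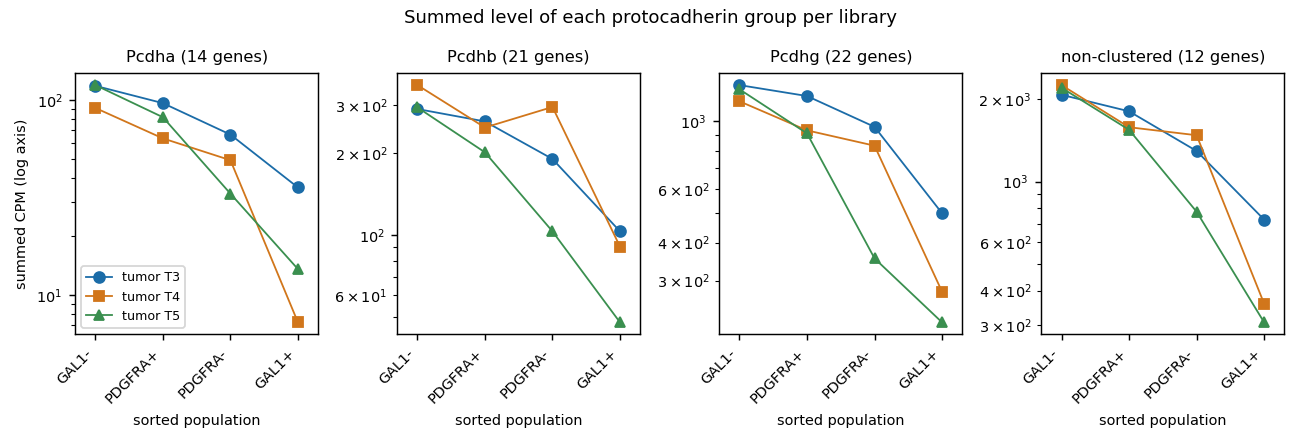
Summed CPM of each protocadherin group (y axis, log scale) in the 4 sorted populations (x axis), with one line and symbol per tumor. The lines run downward from GAL1- to GAL1+ cells in every group, except that T4 rises from PDGFRA+ to PDGFRA- cells in the *Pcdhb* cluster (248 to 295), and T5 is lowest of the 3 tumors in PDGFRA- cells.

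The comparison of GAL1+ with GAL1- cells asks how the cells that carry Galectin-1 differ from the other EGFR+ cells of the same tumor. Of the 69 genes, 65 were called lower in GAL1+ cells (limma, tumor as a block, p under 0.05 after Benjamini-Hochberg adjustment over the whole table), where 29.3% of all genes were called lower. Only *Pcdh12* was called higher, against 28.9% of all genes, and *Pcdh18*, *Pcdh19* and *Pcdh20* were not called in either direction. All 57 clustered genes fell, and the median log2 fold change was -2.71 in *Pcdha*, -2.06 in *Pcdhb* and -1.89 in *Pcdhg*, against -1.74 in the non-clustered genes and -0.03 over all genes. Each of the 57 was lower in GAL1+ than in GAL1- cells in all 3 tumors. For 63 of the 69 genes every GAL1+ library lay below every GAL1- library, which was so for 30.5% of all genes.

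**Figure D2:**
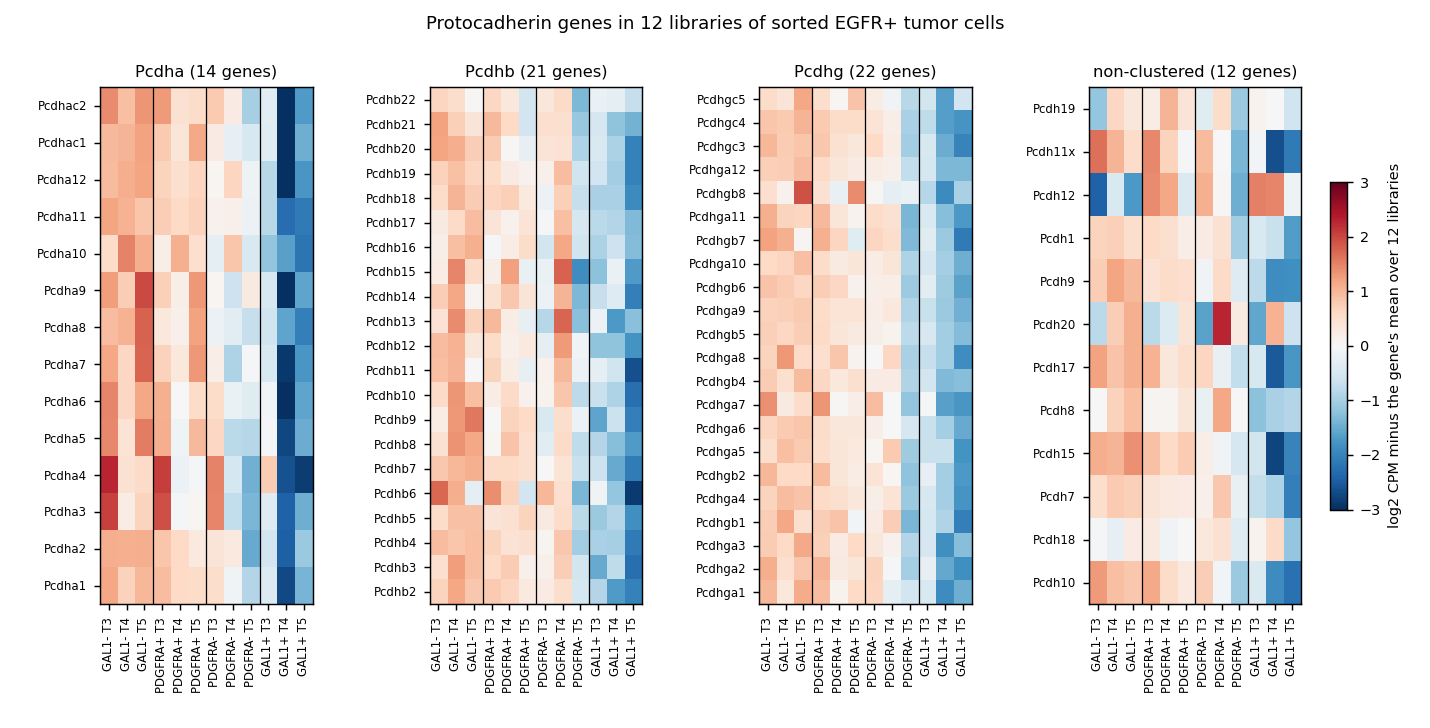
Log2 CPM of each of the 69 genes minus its mean over the 12 libraries (color scale, cut at -3 and 3), with genes in rows, libraries in columns and black lines between populations. GAL1- columns are mostly red and GAL1+ columns mostly blue in the 3 clusters, PDGFRA- cells of T5 are blue in most *Pcdhg* rows, and *Pcdh12*, *Pcdh18*, *Pcdh19* and *Pcdh20* differ from that pattern.

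Among the C-type genes, which resemble each other more than their cluster neighbours, *Pcdhac2* was at 4.56, 4.05 and 4.47 in GAL1-, 4.43, 3.60 and 3.7 in PDGFRA+, 3.93, 3.4 and 2.14 in PDGFRA- and 2.82, -0.79 and 1.45 in GAL1+ cells. The lowest of these, in GAL1+ cells of T4, stood for 6.8 reads. In GAL1+ over GAL1- cells the fitted log2 change was -3.20 (standard error 0.60, adjusted p = 0.00143), and within the tumors it was -1.74, -4.84 and -3.02. It was -3.93 without T3 and -2.38 without T4. *Pcdhac1* was at 2.38, 2.44 and 2.62 in GAL1-, 2.19, 1.77 and 2.54 in PDGFRA+, 1.67, 1.16 and 0.93 in PDGFRA- and 1.06, -1.73 and -0.06 in GAL1+ cells, and changed by -2.72 (standard error 0.48, adjusted p = 0.00107). The change of *Pcdhac1* was -3.42 without T3 and -1.99 without T4, and its GAL1+ value of T4 stood for 3.3 reads. The GAL1+ and GAL1- libraries of both genes were apart.

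*Pcdhgc3*, which took 30.6% to 42.3% of the reads of the *Pcdhg* cluster, was at 9.07, 8.82 and 8.91 in GAL1-, 8.89, 8.52 and 8.42 in PDGFRA+, 8.66, 8.29 and 7.03 in PDGFRA- and 7.59, 6.57 and 6.07 in GAL1+ cells. It fell by 2.19 on the log2 scale between GAL1- and GAL1+ cells (standard error 0.28, adjusted p = 0.000169). Without *Pcdhgc3* the summed CPM of the other 21 *Pcdhg* genes was 775, 709 and 789 in GAL1- and 307, 181 and 152 in GAL1+ cells, so the cluster was lower without it too. *Pcdhgc4*, whose product is needed for neuron survival in mice, was at 5.39, 5.34 and 5.59 in GAL1- and 3.80, 2.92 and 2.78 in GAL1+ cells, with 5.34, 5.12 and 5.12 in PDGFRA+ and 4.97, 4.77 and 3.59 in PDGFRA- cells between them. Its change in GAL1+ cells (-2.27, standard error 0.29, adjusted p = 0.000166) was the greatest in the *Pcdhg* cluster, and that of *Pcdhgc5* (-1.63, standard error 0.32, adjusted p = 0.00209) was the smallest. *Pcdhgc5* was at 5.38, 5.21 and 5.98 in GAL1-, 5.36, 4.89 and 5.69 in PDGFRA+, 5.05, 4.72 and 3.99 in PDGFRA- and 4.28, 3.17 and 4.25 in GAL1+ cells.

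Of the alternate *Pcdha* genes, the 3 with the highest mean log2 CPM were *Pcdha11*, *Pcdha10* and *Pcdha9*. *Pcdha9* fell from 3.28, 2.77 and 4.02 in GAL1- to 1.54, -1.79 and 0.46 in GAL1+ cells, a change of -3.29 (standard error 0.49, adjusted p = 0.000364) or 9.76-fold lower, the greatest of the 69 fitted changes. Its size depended on the tumors, at -4.06 without T3 and -2.65 without T4, and the GAL1+ value of T4 stood for 3.1 reads. It was at 2.74, 2.24 and 3.33 in PDGFRA+ and 2.08, 1.42 and 2.29 in PDGFRA- cells. *Pcdha11* was at 3.59, 3.45 and 3.24 in GAL1-, 3.15, 3.0 and 3.10 in PDGFRA+, 2.54, 2.55 and 2.23 in PDGFRA- and 1.57, 0.11 and 0.29 in GAL1+ cells (-2.77, standard error 0.28, adjusted p = 5.95e-05). For this gene no library of one population lay within the range of another. *Pcdha10* was at 2.83, 3.77 and 3.37 in GAL1-, 2.49, 3.34 and 2.79 in PDGFRA+, 2.01, 3.12 and 1.83 in PDGFRA- and 1.09, 0.65 and 0.10 in GAL1+ cells (-2.71, standard error 0.32, adjusted p = 0.000114). In the whole *Pcdha* cluster the log2 fold change ran from -3.29 to -2.40 (*Pcdha3*). Of the 207 protocadherin values in GAL1+ cells 2 were at or under 3 reads, the lowest being 2.15 reads of *Pcdha6*, and none was in the other populations.

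In the *Pcdhb* cluster, whose genes have no constant exons, *Pcdhb2* was at 4.60, 5.09 and 4.75 in GAL1-, 4.73, 4.58 and 4.23 in PDGFRA+, 4.18, 4.47 and 3.41 in PDGFRA- and 3.05, 2.23 and 1.90 in GAL1+ cells (-2.42, standard error 0.26, adjusted p = 6.98e-05). *Pcdhb6* differed between tumors as well as between populations. It was at 5.32, 4.69 and 3.32 in GAL1-, 5.01, 4.28 and 3.04 in PDGFRA+, 4.61, 4.10 and 2.24 in PDGFRA- and 3.50, 2.45 and 0.73 in GAL1+ cells, so GAL1+ cells of T3 exceeded GAL1- cells of T5. Within tumors its differences were -1.81, -2.24 and -2.59, and the fitted change was -2.21 (standard error 0.18, adjusted p = 3.93e-05). *Pcdhb16* was at 3.91, 4.62 and 4.80 in GAL1-, 3.66, 3.95 and 4.29 in PDGFRA+, 3.17, 4.90 and 3.14 in PDGFRA- and 2.79, 3.10 and 2.42 in GAL1+ cells (-1.68, standard error 0.37, adjusted p = 0.0034). Its highest single value was in PDGFRA- cells of T4. The smallest change in the cluster was that of *Pcdhb22* (-0.79, standard error 0.28, adjusted p = 0.0331) and the greatest that of *Pcdhb9* (-2.46, standard error 0.32, adjusted p = 0.000168).

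The 3 alternate *Pcdhg* genes with the highest mean log2 CPM were *Pcdhga11*, *Pcdhgb7* and *Pcdhgb8*. *Pcdhga11* was at 6.24, 5.85 and 5.82 in GAL1-, 6.16, 5.54 and 5.30 in PDGFRA+, 5.73, 5.65 and 3.81 in PDGFRA- and 4.73, 3.90 and 3.47 in GAL1+ cells (-1.94, standard error 0.30, adjusted p = 0.00049). *Pcdhgb7* was at 6.09, 5.94 and 4.97 in GAL1-, 5.95, 5.53 and 4.51 in PDGFRA+, 5.53, 5.40 and 3.56 in PDGFRA- and 4.52, 3.77 and 2.75 in GAL1+ cells (-1.99, standard error 0.19, adjusted p = 5.37e-05). *Pcdhgb8* was at 5.04, 4.68 and 6.45 in GAL1-, 5.01, 4.31 and 5.96 in PDGFRA+, 4.59, 4.26 and 4.34 in PDGFRA- and 3.69, 2.64 and 3.56 in GAL1+ cells (-2.09, standard error 0.33, adjusted p = 0.000507). T5 was the lowest tumor for *Pcdhgb7* in each population and the highest for *Pcdhgb8* in GAL1- and PDGFRA+ cells.

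The changes within *Pcdhg* lay closer together, from -2.27 to -1.63, than those within *Pcdhb*, from -2.46 to -0.79, and the counts bear on how far single *Pcdhg* genes can be read apart. In each library 3 to 14 of the 22 *Pcdhg* genes (median over libraries 9.5) had recovered reads that end in the same decimals to 2 places, against 1 to 5 of 21 *Pcdhb* genes and 1 to 3 of 14 *Pcdha* genes, and 4 to 17 of the 22 were within 1.5-fold of the lowest gene. If the reads of the lowest gene were present in all 22 genes alike, such common reads would make up 33.6% to 46.9% of the reads of the cluster, and in *Pcdha* 20.9% to 43.8%, which are upper limits. The same measure was 8.54% to 34.0% in *Pcdhb*, whose genes have no constant exons, and this range overlapped those of both other clusters. How exons shared by all genes of a cluster were assigned is not given in the sources used here, so the value of a single *Pcdha* or *Pcdhg* gene may hold a part common to its cluster. *Pcdhb* genes resemble each other in sequence, and reads that match several of them were counted in fractions.

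**Figure D3:**
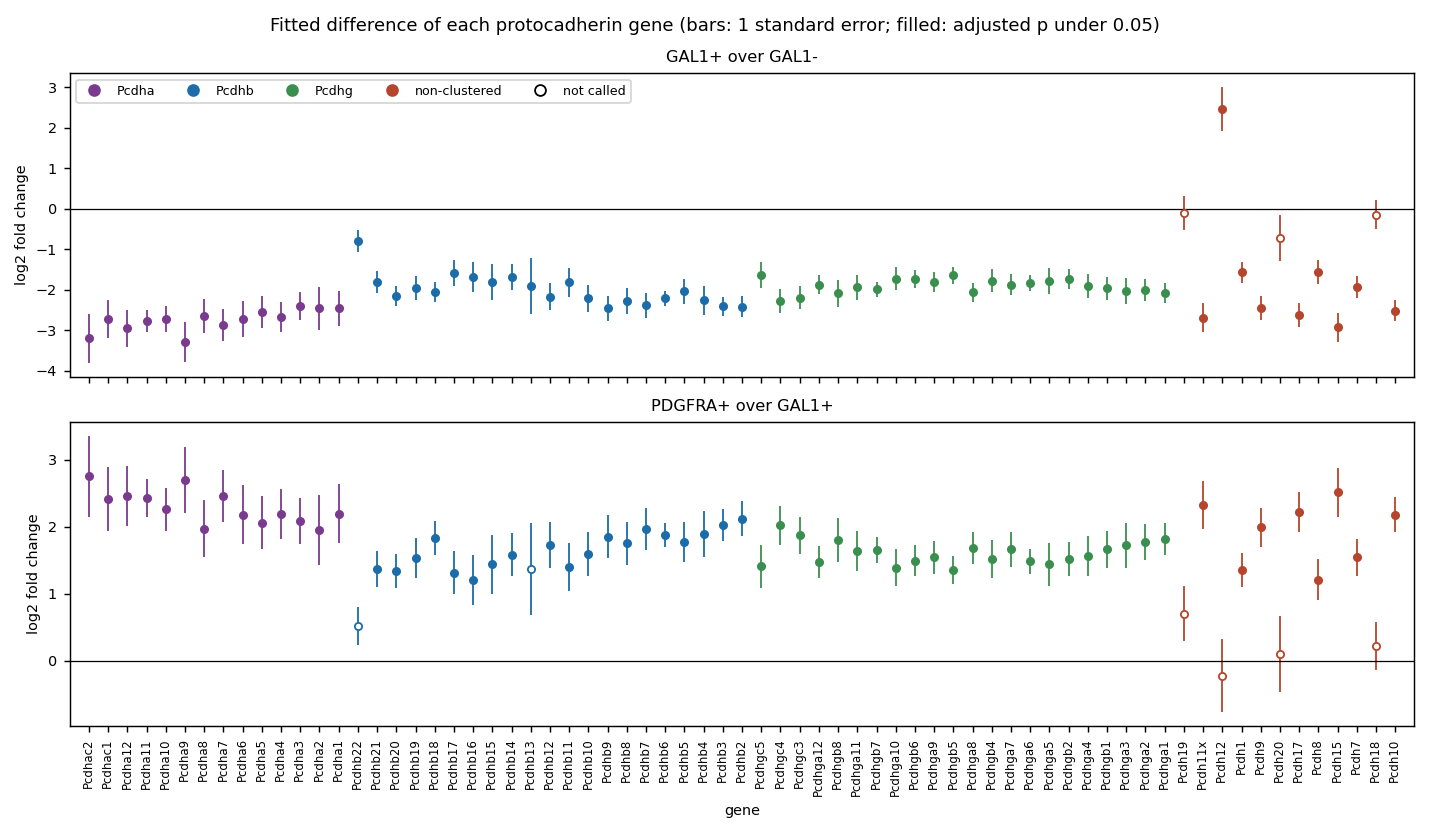
Fitted log2 fold change (y axis) of each protocadherin gene (x axis) for GAL1+ over GAL1- cells (upper) and PDGFRA+ over GAL1+ cells (lower), with 1 standard error. Filled points had an adjusted p under 0.05, which was so for 66 genes in the upper and 63 in the lower panel, and the open points of the upper panel are *Pcdh18*, *Pcdh19* and *Pcdh20*.

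The 12 non-clustered genes were mostly lower in GAL1+ cells, with 11 fitted values below 0. In GAL1+ cells 8 of them were called lower than in GAL1- cells, 1 was called higher and 3 were not called. Per kb of exon, the order of their mean log2 CPM per kb in GAL1- cells was *Pcdh9* (7.05 ± 0.23, SD, n = 3), *Pcdh15* (4.16 ± 0.18), *Pcdh7* (4.15 ± 0.13), *Pcdh17* (4.09 ± 0.18), *Pcdh10* (3.94 ± 0.25), *Pcdh1* (3.45 ± 0.09), *Pcdh11x* (1.86 ± 0.56), *Pcdh20* (1.55 ± 1.00), *Pcdh8* (0.22 ± 0.47), *Pcdh18* (-0.19 ± 0.24), *Pcdh19* (-0.88 ± 0.97) and *Pcdh12* (-2.99 ± 1.00). *Pcdh15*, *Pcdh7*, *Pcdh17* and *Pcdh10* did not differ beyond their spread, and neither did *Pcdh11x* and *Pcdh20* or *Pcdh8*, *Pcdh18* and *Pcdh19*. In GAL1+ cells *Pcdh9* was again highest (4.60 ± 0.61) and *Pcdh12* was no longer lowest (-0.52 ± 0.95).

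The δ1-protocadherins *Pcdh1*, *Pcdh7*, *Pcdh9* and *Pcdh11x* have longer extracellular parts than the δ2 genes. *Pcdh9*, a brain-enriched member, was at 9.58, 10.03 and 9.82 in GAL1-, 9.29, 9.39 and 9.36 in PDGFRA+, 8.75, 9.43 and 8.47 in PDGFRA- and 8.06, 6.99 and 7.02 in GAL1+ cells (GAL1+ over GAL1-: -2.45, standard error 0.29, adjusted p = 0.000125). *Pcdh7* was at 7.40, 7.66 and 7.59 in GAL1-, 7.26, 7.17 and 7.11 in PDGFRA+, 7.03, 7.69 and 6.65 in PDGFRA- and 6.15, 5.93 and 4.82 in GAL1+ cells (-1.92, standard error 0.27, adjusted p = 0.000273). *Pcdh1*, first known from epithelia, was at 6.62, 6.66 and 6.48 in GAL1-, 6.54, 6.42 and 6.14 in PDGFRA+, 6.19, 6.4 and 4.91 in PDGFRA- and 5.49, 5.28 and 4.28 in GAL1+ cells (-1.57, standard error 0.25, adjusted p = 0.000516). The GAL1+ libraries of these 3 genes lay below all libraries of GAL1- and PDGFRA+ cells, and for *Pcdh1* GAL1+ cells of T3 and T4 exceeded PDGFRA- cells of T5. *Pcdh11x*, an X-linked gene, was at 6.25, 5.61 and 5.14 in GAL1-, 6.04, 5.25 and 4.56 in PDGFRA+, 5.53, 4.59 and 3.22 in PDGFRA- and 4.50, 1.95 and 2.47 in GAL1+ cells (-2.69, standard error 0.36, adjusted p = 0.000202), and T3 was its highest tumor in each population.

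Among the δ2-protocadherins, *Pcdh10* and *Pcdh17* both bind the WAVE complex and act in axon growth. *Pcdh10* was at 8.22, 7.84 and 7.74 in GAL1-, 8.08, 7.48 and 7.22 in PDGFRA+, 7.68, 6.86 and 5.82 in PDGFRA- and 6.51, 5.05 and 4.69 in GAL1+ cells (-2.52, standard error 0.26, adjusted p = 6.5e-05). *Pcdh17* was at 7.95, 7.60 and 7.81 in GAL1-, 7.78, 7.09 and 7.27 in PDGFRA+, 7.38, 6.51 and 6.00 in PDGFRA- and 6.26, 4.23 and 5.0 in GAL1+ cells (-2.62, standard error 0.30, adjusted p = 9.59e-05). *Pcdh8*, which neurons induce with synaptic activity, was at 1.88, 2.55 and 2.78 in GAL1-, 1.96, 1.96 and 2.22 in PDGFRA+, 1.64, 3.02 and 1.88 in PDGFRA- and 0.64, 0.90 and 0.98 in GAL1+ cells (-1.56, standard error 0.30, adjusted p = 0.00172). The other δ2 genes did not pass the test. *Pcdh18* was at 2.20, 2.02 and 2.5 in GAL1-, 2.53, 2.16 and 2.25 in PDGFRA+, 2.58, 2.72 and 1.91 in PDGFRA- and 2.37, 2.83 and 1.10 in GAL1+ cells (-0.14, standard error 0.36, adjusted p = 0.76), so its populations overlapped throughout. *Pcdh19*, the X-linked gene of a female-limited epilepsy in people, was at 1.40, 3.20 and 2.92 in GAL1-, 2.79, 3.59 and 2.95 in PDGFRA+, 2.21, 3.11 and 1.46 in PDGFRA- and 2.68, 2.57 and 1.97 in GAL1+ cells (-0.10, standard error 0.41, adjusted p = 0.849). Its tumors went different ways, with differences of 1.28, -0.63 and -0.95.

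The last 3 genes stand outside those groups. *Pcdh15*, which with cadherin 23 forms the tip links of hair cells and is also a marker of oligodendrocyte precursors, was at 8.66, 8.59 and 8.94 in GAL1-, 8.44, 8.17 and 8.32 in PDGFRA+, 7.76, 7.46 and 7.06 in PDGFRA- and 7.02, 4.81 and 5.55 in GAL1+ cells. Its change of -2.93 (standard error 0.37, adjusted p = 0.000146), or 7.64-fold lower, was the greatest of the non-clustered genes, and no population overlapped another. Without T3 it was -3.58. *Pcdh20* was at 2.87, 4.41 and 4.74 in GAL1-, 2.86, 3.27 and 4.05 in PDGFRA+, 2.07, 5.95 and 3.94 in PDGFRA- and 2.11, 4.72 and 3.05 in GAL1+ cells (-0.72, standard error 0.57, adjusted p = 0.304). In T4, and in no other tumor, the GAL1+ library exceeded the GAL1- library, and without T4 it was called lower (-1.23, adjusted p = 0.0114).

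*Pcdh12*, known as an endothelial protocadherin, was the gene that rose. It was at -1.28, 0.69 and -0.58 in GAL1-, 2.57, 2.31 and 0.70 in PDGFRA+, 2.21, 1.18 and -0.33 in PDGFRA- and 2.65, 2.61 and 0.98 in GAL1+ cells. Every GAL1+ library lay above every GAL1- library (2.47, standard error 0.54, adjusted p = 0.00354, and 1.74 without T3), and the lowest GAL1- value stood for 11 reads. All 9 endothelial markers (*Pecam1*, *Cldn5*, *Cdh5* and others) were also called higher in GAL1+ than in GAL1- cells, with a median log2 fold change of 2.70. Their summed CPM was 62.4, 85.2 and 39.5 in GAL1-, 243, 314 and 154 in PDGFRA+, 238, 210 and 250 in PDGFRA- and 336, 377 and 312 in GAL1+ cells. Their part in the result of *Pcdh12* was not tested. *Cdh5*, the cadherin of endothelial junctions, was at 2.43, 2.92 and 1.90 in GAL1- and 5.72, 5.15 and 4.23 in GAL1+ cells. *Pecam1* was at 2.42, 2.74 and 2.08 in GAL1- and 5.54, 5.49 and 6.41 in GAL1+ cells. In GAL1+ cells T5 was thus lowest for *Cdh5* and highest for *Pecam1*. The mean log2 CPM over all 9 markers was 1.57, 2.22 and 0.83 in GAL1- and 4.06, 4.36 and 2.6 in PDGFRA+ cells. It was 4.04, 3.84 and 2.97 in PDGFRA- and 4.54, 4.68 and 3.58 in GAL1+ cells, so T5 was lowest in each population.

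**Figure D4:**
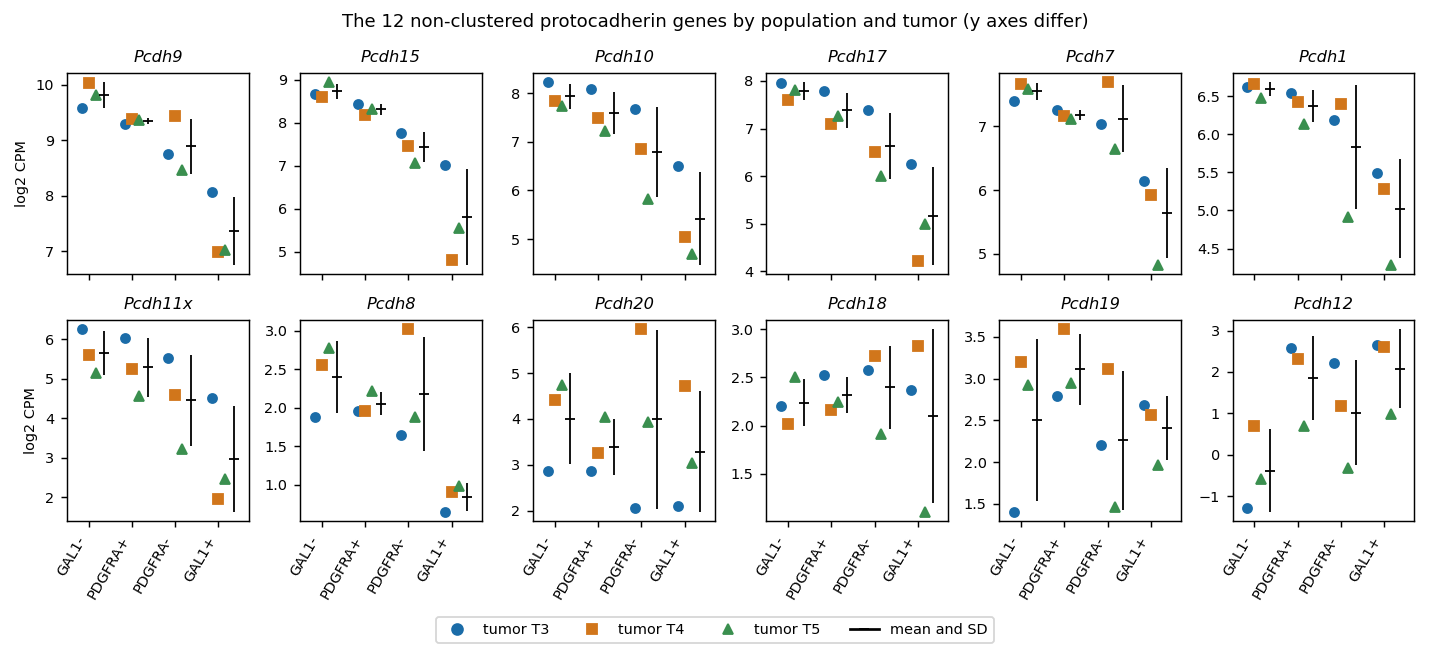
Log2 CPM (y axis, a separate range in each panel) of the 12 non-clustered genes in the 4 populations (x axis), with one symbol per tumor and the mean and SD of the 3 tumors in black. *Pcdh9*, *Pcdh15*, *Pcdh10*, *Pcdh17*, *Pcdh7*, *Pcdh1*, *Pcdh11x* and *Pcdh8* are lowest in GAL1+ cells by their mean. *Pcdh20*, *Pcdh18* and *Pcdh19* overlap between GAL1+ and GAL1- cells, and *Pcdh12* is lowest in GAL1- cells by its mean.

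The promoters of the non-clustered genes are shown because 8 of these genes fell together and 3 did not pass the test. The 120 bases before the start site of *Pcdh10* (chr3:45378278-45378397, + strand), *Pcdh17* (chr14:84443443-84443562, + strand) and *Pcdh8* (chr14:79771313-79771432, - strand), which fell in GAL1+ cells, and of *Pcdh20* (chr14:88471397-88471516, - strand), which was not called, are given from RefSeq on GRCm38.p6, 5′ to 3′ on the strand of the gene, with each CCAAT or its reverse complement ATTGG in capitals (the CCAAT box, a common promoter element).
Pcdh10: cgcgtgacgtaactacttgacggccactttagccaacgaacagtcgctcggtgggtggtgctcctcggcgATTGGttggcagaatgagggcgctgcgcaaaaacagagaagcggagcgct
Pcdh17: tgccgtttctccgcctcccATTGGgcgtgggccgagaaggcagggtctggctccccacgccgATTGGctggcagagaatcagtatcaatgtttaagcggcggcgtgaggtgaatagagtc
Pcdh8: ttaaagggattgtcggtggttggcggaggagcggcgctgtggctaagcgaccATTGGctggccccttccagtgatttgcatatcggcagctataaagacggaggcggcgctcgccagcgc
Pcdh20: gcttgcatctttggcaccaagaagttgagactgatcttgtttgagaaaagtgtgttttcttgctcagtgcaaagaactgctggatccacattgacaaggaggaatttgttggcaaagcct
The motif was present in these 120 bases in 7 of the 9 non-clustered genes for which the table of 32851 promoters held an entry, against 21.3% of all promoters. *Pcdh10* had it once, starting 50 bases before the start site, *Pcdh17* had it 2 times, 101 and 58 bases before, and *Pcdh8* had it once, 68 bases before. *Pcdh18* and *Pcdh19*, which did not pass the test, also held it, and *Pcdh7*, which fell, and *Pcdh20* did not. In the window from 250 bases before to 50 after the start it was present in 8 of the 9 genes and in 37.4% of all promoters. The motif was chosen after the expression values were known, and a match is no evidence of binding.

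PDGFRA+ cells were also compared with GAL1+ cells, which are the positive gates of both stainings. Here 63 of the 69 protocadherin genes were called higher in PDGFRA+ cells, where 20.9% of all genes were, and none was called lower. The GAL1+ libraries are the same as in the comparison above, so the pair of comparisons is not independent. All 14 *Pcdha* genes (median log2 fold change 2.23), 19 of 21 *Pcdhb* genes (1.59), all 22 *Pcdhg* genes (1.60) and 8 of 12 non-clustered genes (1.45) were called, against a median of 0.01 over all genes. The genes not called were *Pcdhb13*, *Pcdhb22*, *Pcdh12*, *Pcdh18*, *Pcdh19* and *Pcdh20*. *Pcdhac2* showed the greatest difference (2.75, standard error 0.60, adjusted p = 0.00768), with 1.61, 4.39 and 2.25 in the 3 tumors and a fitted 1.93 without T4. *Pcdha9* followed (2.70, standard error 0.49, adjusted p = 0.0035), at 3.45 without T3 and 2.04 without T4. Among the *Pcdhg* genes the differences ran from 1.35 in *Pcdhgb5* to 2.02 in *Pcdhgc4*, and *Pcdhgc3* was higher by 1.87 (standard error 0.28, adjusted p = 0.00197). *Pcdh15* led the non-clustered genes (2.51, standard error 0.37, adjusted p = 0.00178), ahead of *Pcdh11x* (2.32), *Pcdh17* (2.22), *Pcdh10* (2.18), *Pcdh9* (1.99), *Pcdh7* (1.54), *Pcdh1* (1.35) and *Pcdh8* (1.21). *Pcdh12* differed by -0.22 (standard error 0.54, adjusted p = 0.778) in this comparison. The count was 49 without T3 and 50 without the tumor block. *Pcdhb16*, called at 1.20 (adjusted p = 0.0293), was not called without T3 (adjusted p = 0.131) or T5 (0.134), and *Pcdh8* was not called without T3 (0.117) or T5 (0.0666).

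PDGFRA+ and PDGFRA- cells were not told apart by any protocadherin gene after adjustment. No gene of the table was called by limma in this comparison (0% of 18180), nor was a protocadherin under any of the 13 alternatives tried, and the smallest adjusted p of a protocadherin was 0.306. Of the 69 genes, 65 had a positive log2 fold change, with a median of 0.60 over the 69, and 8603 of all 18180 genes had a positive one. At an unadjusted p under 0.05, 23 of the 69 genes differed, each of them higher in PDGFRA+ cells, against 6.02% of all genes. Among them were 12 *Pcdhg*, 5 *Pcdha*, 2 *Pcdhb* and 4 non-clustered genes. The 3 smallest p were those of *Pcdhgb6* (0.72, standard error 0.23, adjusted p = 0.306), *Pcdhgb2* (0.77, standard error 0.25, adjusted p = 0.306) and *Pcdh10* (0.80, standard error 0.26, adjusted p = 0.306). *Pcdhgb6* was at 5.13, 5.0 and 4.51 in PDGFRA+ and 4.57, 4.60 and 3.31 in PDGFRA- cells, and *Pcdhgb2* was at 5.34, 4.77 and 4.63 in PDGFRA+ and 4.80, 4.46 and 3.18 in PDGFRA- cells. Both genes, like *Pcdh10*, differed most in T5, and their populations overlapped. Without PDGFRA- cells of T5 none of the 69 genes had an unadjusted p under 0.05, and the PDGFRA+ mean was above the PDGFRA- mean in 50. Without T5 as a whole 1 gene had such a p. Mature oligodendrocyte markers moved with this gate, with a summed CPM of 334, 259 and 317 in PDGFRA+ and 698, 1011 and 948 in PDGFRA- cells and a median log2 fold change of -2.03, though none of the 8 was called, and their part in the result was not tested. In T4 the *Pcdhb* sum was higher in PDGFRA- than in PDGFRA+ cells, with a ratio of PDGFRA+ to PDGFRA- of 0.84, against 1.37 in T3 and 1.95 in T5.

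PDGFRA+ cells were closer to GAL1- cells. Of the 69 genes, 66 had a fitted value below 0 for PDGFRA+ over GAL1-. The median log2 fold change was -0.35 over the 69 against -0.02 over all genes. Only 2 of the 18180 genes of the table were called lower in this comparison, and none of the 66 was. *Pcdhb20* had the smallest p among them (-0.82, standard error 0.25, adjusted p = 0.0875), from 4.20, 4.12 and 3.77 in GAL1- to 3.78, 3.07 and 2.78 in PDGFRA+ cells. *Pcdhb9* followed (-0.61, standard error 0.32, adjusted p = 0.381), from 2.81, 3.88 and 4.15 to 2.60, 3.24 and 3.17. *Pcdh12* was the only protocadherin called, higher in PDGFRA+ cells (2.25, standard error 0.54, adjusted p = 0.0311), where 8.26% of all genes were called higher. Its call was lost without T3, T4 or T5 (adjusted p 0.102, 0.1 and 0.0923) and without the tumor block (0.188). All 9 endothelial markers were called higher here too, with a median of 2.0. With only the libraries of these 2 populations in the fit, 17 protocadherins were called, *Pcdh12* higher and 16 lower. The share of all genes called in that fit is not given here, so the 17 cannot be set against the whole table.

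The same gene could differ between tumors as well. The tumor with the highest value was the same in all 4 populations for 20 of the 69 genes (16 in T3, 4 in T4 and none in T5), a share of 29.0% that is near the 28.6% of all genes. By at least 1 log2 unit in each population this was so for 2 genes, *Pcdha3* and *Pcdha4* in T3, against 0.71% of all genes. These genes and the others of this paragraph were chosen after their values were seen. *Pcdha4* was at 3.57 in T3 against 1.75 and 1.86 in T4 and T5 in GAL1- cells, 3.36 against 1.11 and 1.26 in PDGFRA+, 2.78 against 0.77 and -0.16 in PDGFRA- and 2.06 against -1.32 and -1.56 in GAL1+ cells. *Pcdha3* was at 3.3 against 1.46 and 1.90, 3.18 against 1.21 and 1.29, 2.71 against 0.50 and -0.13, and 0.85 against -1.18 and -0.22 in the same order. The 2 genes are neighbours in the *Pcdha* cluster.

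To set aside the level of the whole cluster, each clustered gene was expressed relative to the median of its cluster in the same library. On this scale the same tumor was highest in all 4 populations for 19 of 57 genes (5 *Pcdha*, 4 *Pcdhb* and 10 *Pcdhg*). Genes outside the clusters have no value on this scale, and on the plain scale the share of all genes was 28.6%. By at least 1 log2 unit in each population this was so for 1 of the 57, *Pcdha10*. *Pcdha10* stood out in T4, at 1.57, 1.63, 2.09 and 2.0 log2 units above the cluster median in GAL1-, PDGFRA+, PDGFRA- and GAL1+ cells, while its mean over the 4 populations was 0.02 in T3 and 0.41 in T5. *Pcdha4* had means of 0.86, -0.32 and -1.26 in T3, T4 and T5, and *Pcdhb6* of 1.39, 0.63 and -0.19. In the *Pcdhg* cluster *Pcdhgb8* was highest in T5 (0.05, -0.29 and 1.18), *Pcdhga7* in T3 (0.76, -0.20 and -0.05) and *Pcdhgc5* in T5 (0.49, 0.24 and 1.08), and *Pcdhgb7* was lowest in T5 (0.99, 0.90 and 0.05). *Pcdhb16* was lowest in T3 (0.16, 0.89 and 1.14). These genes were chosen after their values were seen, for differing between tumors on this scale.

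**Figure D5:**
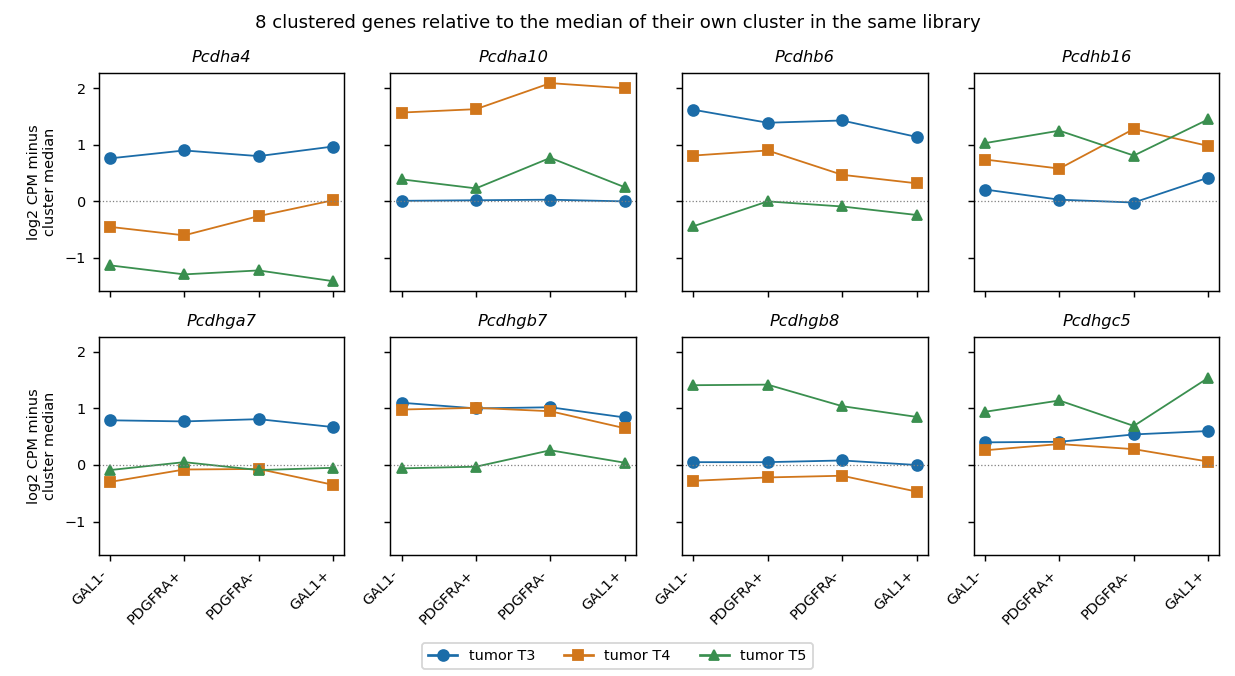
Log2 CPM minus the median of the gene's own cluster in the same library (y axis) for 8 clustered genes in the 4 populations (x axis), with one line per tumor. *Pcdha10* is highest in T4 (1.57 to 2.09), *Pcdha4*, *Pcdhb6* and *Pcdhga7* in T3 and *Pcdhgb8* and *Pcdhgc5* in T5, in all 4 populations.

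After each population's mean was taken off each gene, the 18 pairs of same-tumor libraries correlated across the 22 *Pcdhg* genes with a mean Pearson r of 0.875 (from 0.785 to 0.986), and the mean r was 0.683 over the *Pcdha* genes, 0.495 over the *Pcdhb* genes and 0.639 over the non-clustered genes, and 0.486 over all genes. The 36 pairs from different tumors had means below 0 in each group of genes, since the deviations of 3 tumors sum to 0. Genes are not independent replicates, and these values are a description. Reads differed between the groups of genes, with values down to 2.15 reads in *Pcdha*, and *Pcdha* and *Pcdhg* genes may hold common reads. The part of either in the differences in r between the groups was not tested. The 4 libraries of a tumor share its genotype on the mixed background, so differences between tumors in sequence and differences in promoter choice cannot be told apart here.

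Genes that act on or with protocadherins did not move as one group. Of 18 regulators of the clusters (CTCF, cohesin with its loaders and release factors, SMCHD1, SETDB1 with its partners, and DNA methyltransferases), 5 were called higher and 8 lower in GAL1+ than in GAL1- cells, with a median log2 fold change of -0.18, where 28.9% of all genes were called higher and 29.3% lower. *Ctcf*, which anchors the loops between promoters and enhancers, was at 6.39, 6.33 and 6.13 in GAL1- and 6.11, 6.01 and 6.05 in GAL1+ cells and was not called (-0.23, adjusted p = 0.0878). *Smchd1*, which represses clustered protocadherins, rose in GAL1+ cells (0.51, adjusted p = 0.00396), as was the methyltransferase gene *Dnmt3a* (0.77, adjusted p = 0.00232), and *Dnmt1*, which maintains methylation in dividing cells, was lower (-0.85, adjusted p = 0.000386). Among 17 signalling partners 8 were higher and 8 lower, and within the WAVE complex the paralogs split. *Wasf1* (-2.63), *Wasf3* (-2.43), *Cyfip2* (-1.70), *Nckap1* (-1.78) and *Abi2* (-1.55) fell, while *Wasf2* (1.74), *Cyfip1* (1.76), *Abi1* (1.64) and *Brk1* (0.97) rose. The kinases bound by clustered protocadherins also split, with *Ptk2* (FAK) at -1.38 (adjusted p = 0.000373) and *Ptk2b* (PYK2) at 3.73 (adjusted p = 5.1e-05). All 12 leukocyte markers were called higher in GAL1+ cells as well (median 4.70). The part of leukocytes and other cell types in the levels of these regulators and partners was not tested.

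The rest of the cadherin superfamily was read from the same fit for comparison. Of 26 measured genes, 17 were called lower and 3 higher in GAL1+ cells, with a median of -1.70, against 65 lower and 1 higher of the 69 protocadherins with a median of -2.06. *Cdh2*, the N-cadherin of neural cells, was at 7.41, 7.15 and 7.28 in GAL1- and 5.99, 4.78 and 5.02 in GAL1+ cells (-2.01, adjusted p = 0.000198), and *Fat3*, *Celsr2* and *Cdh4* fell as well (-1.72, -1.90 and -2.66). The 3 that rose were *Cdh1* (1.85), *Cdh5* (2.61) and *Cdh23* (3.02), the tip-link partner of the *Pcdh15* product. In PDGFRA+ over GAL1+ cells 16 of the 26 were called higher and 1, *Cdh23*, lower.

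Other marker lists are given for all their genes. All 12 leukocyte and all 8 microglia markers were called higher in GAL1+ than in GAL1- cells (medians 4.70 and 4.45), as were 5 of 6 pericyte markers, with *Cspg4*, which is also a precursor marker, called lower. All 8 oligodendrocyte precursor markers (median -2.89), 7 of 8 mature oligodendrocyte markers (-1.26), 5 of 10 measured neuron markers (-1.58) and 4 of 8 astrocyte markers (-0.98) were called lower. The summed CPM of neuron markers was 182 to 280 in GAL1- and 78.8 to 114 in GAL1+ cells. The part of these cell types in the levels of protocadherins and of the other cadherins was not tested.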

How the data were processed

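EGFR+ cells of 3 mouse GBMs were sorted into 4 populations and their RNA was sequenced on a NextSeq550 from 1 ng (12 libraries). The authors used fastp for trimming and STAR in its 2-pass mode for alignment to mm39, counted reads on exons with featureCounts (multi-mapping reads as fractions), kept genes with CPM above 1 in at least 3 samples, scaled them by TMM and applied voom. The deposited values are log2 CPM with an offset of 0.5 reads. Strand use in counting is not given in the sources used here.

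Reads were recovered from these values by taking the lowest value of each library as 0 reads, and 41.2% to 59.1% of values per library came out within 0.005 of a whole read. The values were fitted with limma 3.58.1 in R 4.3.3, with the 4 populations and the tumor block as terms and a mean-variance trend, over all 12 libraries (6 residual and 3.49 prior degrees of freedom), and called where p was under 0.05 after Benjamini-Hochberg adjustment over the 18180 genes. The deposited values have no voom weights, for which the trend stands in. Population labels share tumors, and same-tumor libraries deviated together (mean correlation 0.486 over 18 pairs, lowest 0.14). The tumor block takes off the mean level of each tumor. P-values rest on how far the differences between populations varied over these 3 tumors, pooled over the 4 populations. Summed CPM had the offset taken off for protocadherins and not for marker lists. A limit of 3 reads covers counting error only. Exon lengths came from GENCODE M21 and promoters from RefSeq, both on another build than the files, so no coordinate was joined.

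Genes with values in every library are all non-clustered and C-type genes, the 3 with the highest mean in each cluster, the greatest called change in each direction, and, where under 3 were called, the 3 smallest p. The members and lists were chosen with earlier results of these data known. The fit was tested on simulated data. Figures were drawn with matplotlib 3.10.9. One item of the mouse genotype is not reported here.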

Additional observations from a re-analysis of the deposited data

How the results depend on the processing

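The fit was repeated under 13 alternatives. In GAL1+ over GAL1- cells the number of protocadherins called (66) was 62 without the tumor block and 64 to 66 with a tumor or a library left out. In PDGFRA+ over GAL1+ cells (63) it was 50 without the block and 49 to 64 with libraries left out. In PDGFRA+ over PDGFRA- cells it was 0 under each of the 13. In PDGFRA+ over GAL1- cells the count of 1 became 0 without the block, 17 with only these 2 populations in the fit, 2 with voom weights on recovered reads and 2 after median centring (*Pcdhb20* joining *Pcdh12* in both), and 0 to 1 with libraries left out. The fit with fewer libraries estimates the spread from those alone, and the share of all genes it called is not given here. The cause of the other changes was not tested.

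Directions changed in genes that were not called. *Pcdh20* in PDGFRA+ over GAL1+ cells had a log2 fold change of -0.05 with voom weights, -0.05 after quantile normalization, -0.06 after median centring and -0.35 to 0.88 with libraries left out. *Pcdh18* ran from -0.25 to 0.66 in that comparison and from -0.62 to 0.49 in GAL1+ over GAL1- cells, where *Pcdh19* ran from -0.79 to 0.33. Median centring moved the median of all genes in PDGFRA+ over GAL1+ cells to -0.15 and the share of higher calls from 55.1% to 40.8%, with 63 protocadherins called under both. Of the alternative fits of named genes, 10 in PDGFRA+ over GAL1+ cells lost the call (*Pcdhb16*, *Pcdh8*, *Pcdhac1*, *Pcdhgc5*, *Pcdhb6*, *Pcdhga11* and *Pcdhgb7*) and 322 kept it or stayed uncalled with the same sign. In GAL1+ over GAL1- cells none lost the call, and *Pcdh20* gained it without T4. On log2(CPM + 1) low genes changed less, such as *Pcdha9* (-2.31) and *Pcdh12* (1.55) in GAL1+ over GAL1- cells. The counts of genes in the order of the populations with libraries left out were 48 to 63 and were added after the data were seen. Recovered reads were fewest in PDGFRA- cells, and protocadherin values of 3 reads or under were found in GAL1+ cells.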
